A study of Tachycineta bicolor with 12 samples.

Results

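The enzymes that burn fatty acids and those of the citrate cycle were followed through the muscle, liver, brain, ovary, blood and spleen of the tree swallow (Tachycineta bicolor). Members were the protein-coding segments whose protein name held at least 1 of 16 terms, such as carnitine, acyl-CoA dehydrogenase, citrate synthase and malate dehydrogenase. This gave 59 segments under 54 protein names, of 14908 segments in all, and the rule itself uses names only. Tissues came from 2 wild adult females, of which 1 was taken during territory establishment and 1 during incubation, and their RNA was combined in equal molar amounts into 1 pool per tissue (pectoral muscle, liver, brain, ovary, trunk blood and spleen). No treatment is named in the labels. Each pool was sequenced once on the NextSeq (short reads) and once on the MiSeq (longer reads), which made 12 libraries. The 2 libraries of a tissue show how well the measurement repeats and say nothing of how birds differ, which left no replicates for a test between tissues, and no p-value is given. The blending of 2 breeding stages in every pool also means that stages cannot be told apart.

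Fatty acids are first activated to acyl-CoA by ligases on membranes that face the cytosol. Carnitine then carries the long chains into the mitochondria, where the rounds of beta-oxidation (dehydrogenation, hydration, a second dehydrogenation and cleavage by a thiolase) release acetyl-CoA. The citrate cycle burns that acetyl-CoA and feeds electrons to the respiratory chain, and several of its steps also have cytosolic or NADP-linked forms that serve synthesis instead. The flight muscle of small birds is known for running on fatty acids during long flights. Liver both oxidizes and makes fatty acids, brain is known to rely mainly on glucose, and avian red blood cells keep their nucleus and mitochondria.

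Levels are CPM, the count of a segment per 1000000 counts of its tissue, with both libraries summed. Because no segment lengths were at hand, levels are compared only for the same segment between tissues. Gene symbols are those usual for the protein names in the file, 5 names had 2 segments each, and the segment with more counts goes by the plain symbol. The total counts of the pools lay between 16496225 in spleen and 42803056 in muscle, so that 1 count was worth 0.0234 CPM in muscle and 0.0606 CPM in spleen. NextSeq libraries held 15484468 to 40798612 counts and MiSeq libraries 1011108 to 2004444. For members with enough MiSeq counts (20 or more), the log2 ratio of MiSeq to NextSeq had an SD across members of 0.159 in liver to 0.306 in blood. Transcripts of the mitochondrial genome made up 59.3% of the counts in muscle, 11.8% in liver, 12.1% in brain, 1.87% in ovary, 0.656% in blood and 6.01% in spleen, which lowers the CPM of every nuclear gene in muscle most. Markers placed each tissue as labelled, with all 7 matched skeletal muscle markers highest in muscle, 6 of 7 hepatocyte markers highest in liver (transthyretin was highest in brain) and all 3 matched erythrocyte markers highest in blood. The summed hepatocyte markers in spleen were 1.1% of their liver level, and the summed erythrocyte markers were 0.166% to 0.383% of their blood level in the other 5 tissues.

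Muscle and liver gave the largest shares of their counts to the member segments. The 59 segments took 2.61% of all counts in muscle and 2.78% in liver, against 0.711% in brain, 0.753% in ovary, 0.119% in blood and 0.476% in spleen. Of the members' counts, 24.3% in liver and 0.793% in muscle came from 3 segments of other pathways that the name rule drew in. Of the counts from nuclear genes alone they took 6.41% in muscle and 3.15% in liver, while the other tissues stayed between 0.12% and 0.809%. The highest level was in muscle for 30 of 59 members (4.11% of all 14561 segments that reached 1 CPM in a tissue), in liver for 15 (6.23%), in ovary for 6 (32.1%), in brain for 5 (24.9%), in spleen for 2 (23.7%) and in blood for 1 (8.89%). Muscle and liver were the 2 highest tissues for 27 of 59 members, against 1.35% of all expressed segments. Both platforms named the same highest tissue for 56 of 59 members (89.0% of all segments), and the exceptions were ACSL3, IDH2 and MDH1B, whose 2 highest tissues lay close together. A lead of at least 2-fold over the next tissue, with 1 CPM added to both, was found for 29 members (45.0% of all segments), and it held on each platform alone for all 29. Of these, 15 led in muscle (2.18% of all segments), 8 in liver (3.85%), 3 in brain (13.2%) and 1 each in ovary (13.6%), blood (3.91%) and spleen (8.21%). All leads given in the following were computed in this way. With the mitochondrial genome left out of the totals, 39 members were highest in muscle (9.18% of all expressed segments) and 8 in liver (5.92%), and 31 led by 2-fold in muscle (4.6%). The 9 that moved to muscle were ACSL1, FH, SUCLG2, the probable ACAD6, ECI2, ECHDC3, CS, ECHDC2 and the second segment of SLC25A20. With TMM factors none was highest in ovary or spleen: CROT, CS, ECHDC2 and the second HADH segment were highest in muscle, CPT1A and ACAD11 in liver, and ACSL3 and MDH1B in brain. Each tissue is a mixture of cells, and fewer cells of a type cannot be told apart from less RNA per cell.

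**Figure D1:**
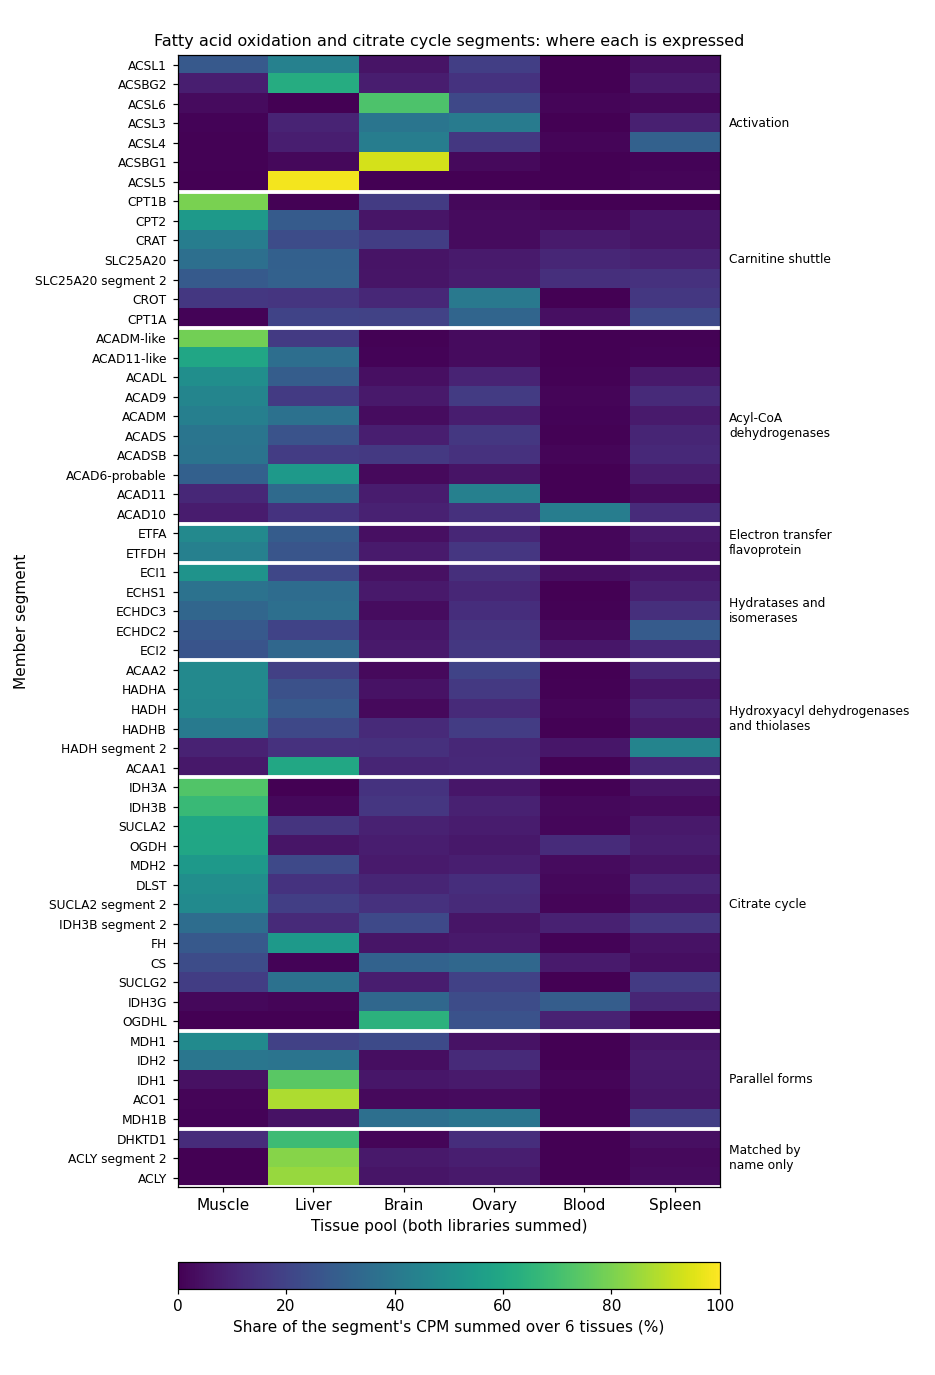
Share of each member's CPM, summed over the 6 tissues, that each tissue pool (columns) contributes, on a color scale from 0 to 100%, with 58 member segments in rows grouped by role. Mitochondrial enzymes of oxidation and the citrate cycle are brightest in muscle, ACSL5 has 98.4% of its level in liver and ACSBG1 93.7% in brain.

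Among members, where the protein works in the cell went with where its RNA was highest. Of the 41 members with a mitochondrial site, 28 were highest in muscle (4.11% of all expressed segments) and 6 in liver (6.23%). For mitochondrial names in general the share highest in muscle was smaller, but still above that of all expressed segments. The 557 other expressed segments with mitochondrial in their name were a set chosen after the values were seen. Of these, 24.1% were highest in muscle (4.11% of all expressed segments), 12.4% in liver (6.23%) and 34.5% in ovary (32.1%). Of the 5 members of the cytosol, 4 were highest in liver (ACO1, IDH1 and both segments of ACLY, a gene of another pathway) and 1 in muscle (MDH1). None of the 7 ligases on membranes facing the cytosol was highest in muscle when levels were taken over all counts, although ACSL1 moved to muscle when the mitochondrial genome was left out of the totals. These sites were assigned from the protein names and common knowledge, and the comparison is a description of counts.

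Of the 7 ligases that activate fatty acids, 3 were highest in liver (6.23% of all expressed segments), 3 in brain (24.9%) and 1 in ovary (32.1%). ACSL5, known from mammals in liver and intestine, was all but confined to liver. In the NextSeq and MiSeq libraries it had 0.172 and 0 CPM in muscle, 3563 and 3562 in liver, 0.0268 and 0.989 in brain, 7.59 and 6.32 in ovary, 0.449 and 0.555 in blood, and 48.2 and 56.8 in spleen. Its level in liver was 71.7 times that in the next tissue, spleen, with 1 CPM added to both, and no other member led by so much. The level of ACSL5 in spleen was 1.37% of that in liver, beside 1.1% for the summed hepatocyte markers there (7 of 7 above 0 in spleen), and their part in the spleen value was not tested. ACSL1, the general ligase of oxidative tissues in mammals, was shared by muscle and liver, at 473 CPM in muscle, 739 in liver, 90.3 in brain, 309.9 in ovary, 1.3 in blood and 70.4 in spleen. ACSBG2, a ligase of the bubblegum family, was also highest in liver, at 95.6 CPM in muscle, 707 in liver, 92.6 in brain, 167 in ovary, 1.38 in blood and 77.1 in spleen.

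Brain was highest for the other bubblegum ligase and for ACSL6 and ACSL4, though ACSL4 lay less than 2-fold above spleen. ACSBG1 had 1.51 and 2 CPM in muscle, 5.49 and 6.74 in liver, 238 and 228 in brain, 6.44 and 4.46 in ovary, 0.366 and 0.555 in blood, and 2.16 and 0.988 in spleen. It was 32.6 times higher in brain than in ovary, the next tissue. ACSL6, which is known for handling polyunsaturated fatty acids in the nervous system of mammals, had 16.2 and 13.2 CPM in muscle, 0.238 and 0.562 in liver, 415 and 422 in brain, 124 and 132 in ovary, 6.96 and 8.05 in blood, and 12.3 and 17.8 in spleen. Both platforms placed brain first and ovary second for ACSL6, with a 3.33-fold lead. ACSL4, which prefers arachidonic acid, had 4.11 CPM in muscle, 45.9 in liver, 234 in brain, 89.7 in ovary, 8.64 in blood and 173 in spleen. ACSL3, a ligase of lipid droplets and the endoplasmic reticulum, had 3.25 CPM in muscle, 37.8 in liver, 149 in brain, 159.5 in ovary, 0.376 in blood and 33.9 in spleen, and its first place changed between ovary on NextSeq (161 CPM, against 149.8 in brain) and brain on MiSeq (135 CPM, against 126 in ovary). Of the counts of all 7 ligases, ACSL1 took 79.7% in muscle and 14.5% in liver, while ACSL5 took 0.0276% in muscle and 69.9% in liver. ACSL6 took 34% in brain, against 0.00499% in liver. These shares are set beside each other for the same ligase between tissues only.

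The gate of the carnitine shuttle, carnitine palmitoyltransferase 1, was found as the form named for liver (CPT1A) and the form named for muscle (CPT1B). CPT1A had 8.33 and 11.2 CPM in muscle, 149 and 135 in liver, 145 and 139.9 in brain, 239.7 and 222 in ovary, 29.4 and 22.5 in blood, and 162 and 141 in spleen. It was highest in ovary and lowest in muscle, although liver was highest with TMM factors, and liver, brain and spleen lay between 145 and 161 CPM. CPT1B had 11.2 and 6.98 CPM in muscle, 0.0893 and 0 in liver, 2.44 and 1.98 in brain, 0.322 and 0 in ovary, 0 and 0 in blood, and 0 and 0 in spleen. CPT1B was highest in muscle on both platforms, where 472.5 counts gave 11 CPM (95% exact Poisson interval 10.1 to 12.1). Liver had 3 counts of CPT1B (interval 0.0175 to 0.248 CPM), and blood and spleen had none, which allows up to 0.0941 CPM in blood and 0.182 CPM in spleen by a floor of 3 counts. Such intervals cover counting error only.

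Behind this gate, the segments of CPT2, SLC25A20 and CRAT differed by less than 2-fold between muscle and liver with the libraries summed. With the mitochondrial genome left out of the totals, 5 of the 7 shuttle segments were higher in muscle by 2-fold or more (27.7% of all expressed segments). CPT2, which restores acyl-CoA inside the mitochondrion, had 466 and 429.5 CPM in muscle, 246 and 213 in liver, 48.9 and 47.5 in brain, 24.1 and 20.4 in ovary, 22.7 and 21.9 in blood, and 52.4 and 43.5 in spleen. The 2 segments of the carrier SLC25A20, which exchanges acylcarnitine for carnitine, had 120 and 50.9 CPM in muscle and 101 and 55.7 CPM in liver. Blood, at 35.7 and 24.4 CPM, was level with spleen at 31.6 and 25.3 CPM for this carrier, unlike for most members. Both segments carry the same assembly number, so reads may be split between them. CRAT, which buffers acetyl groups as acetylcarnitine, had 111 CPM in muscle, 60.9 in liver, 47.9 in brain, 8.08 in ovary, 18.5 in blood and 15.3 in spleen. CROT, which takes medium chains out of peroxisomes, was the only member led by 2-fold in ovary, at 99.4 CPM in muscle, 93.4 in liver, 67 in brain, 245 in ovary, 2.34 in blood and 99.5 in spleen. With TMM factors CROT was highest in muscle. The 4 adipocyte markers summed to 85.1 in muscle, 25.5 in liver, 2.85 in brain, 158 in ovary, 0.91 in blood and 28.8 in spleen in CPM, of which FABP4 alone gave 143 CPM in ovary. None of the 4 was at 0 in any tissue, FABP4 was highest in ovary, PLIN1 in muscle, and ADIPOQ and CIDEC in liver, and their part in the ovary values of CROT and CPT1A was not tested.

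Of the 10 acyl-CoA dehydrogenase segments, which take the first electrons from the chain, 7 were highest in muscle (4.11% of all expressed segments). The medium-chain enzyme ACADM had 1553 and 1306 CPM in muscle, 1347 and 1114 in liver, 119 and 99.4 in brain, 286 and 220.4 in ovary, 38.5 and 28 in blood, and 256 and 188 in spleen. Muscle was 1.15 times liver for this enzyme, and all other tissues were far below both. Without the mitochondrial genome in the totals, ACADM had 3789 CPM in muscle and 1514 CPM in liver. The long-chain enzyme ACADL had 1341 CPM in muscle, 799.9 in liver, 109 in brain, 272 in ovary, 19 in blood and 182 in spleen, and the short-chain enzyme ACADS 253 CPM in muscle, 168 in liver, 54.5 in brain, 107 in ovary, 3.56 in blood and 66.9 in spleen. A second medium-chain segment, named ACADM-like, was more confined to muscle, with 343 and 324 CPM in muscle, 74.5 and 65.2 in liver, 2.81 and 2.47 in brain, 12.7 and 20.4 in ovary, 0 and 0 in blood, and 2.71 and 0.494 in spleen. Its lead over liver was 4.57-fold, and blood had no count (floor 0.0941 CPM). ACAD9, which in humans also serves the assembly of respiratory complex I, had 547 CPM in muscle, 206 in liver, 81 in brain, 210 in ovary, 14.7 in blood and 145 in spleen. ACADSB, which acts on branched chains from isoleucine, had 213 CPM in muscle, 99.5 in liver, 92.6 in brain, 80.3 in ovary, 8.05 in blood and 65.2 in spleen. Both were led by muscle by more than 2-fold.

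ACAD11, an enzyme for very long chains in mammals, had 73.3 CPM in muscle, 231 in liver, 52 in brain, 292 in ovary, 2.1 in blood and 19.5 in spleen, with ovary 1.27 times liver. The segment named ACAD11-like had 417 CPM in muscle, 256 in liver, 7.09 in brain, 19.6 in ovary, 0.235 in blood and 7.12 in spleen. The ratio of muscle to liver therefore differed in sign between them (-1.64 for ACAD11 and 0.70 for ACAD11-like on the log2 scale), and reads of such similar genes may be shared. The probable acyl-CoA dehydrogenase 6 had 83.5 CPM in muscle, 146 in liver, 6.48 in brain, 14.9 in ovary, 0.502 in blood and 20.6 in spleen. ACAD10 was the only member highest in blood, with 3.73 and 4.74 CPM in muscle, 7.06 and 8.14 in liver, 4.58 and 1.48 in brain, 6.82 and 7.43 in ovary, 20.8 and 21.4 in blood, and 6.1 and 6.42 in spleen. All blood values of ACAD10 lay above all values of the other tissues, with a lead of 2.69-fold over liver. The electrons pass on through the electron transfer flavoprotein. Its subunit ETFA had 567 CPM in muscle, 352 in liver, 49.1 in brain, 129 in ovary, 21 in blood and 84 in spleen, and the oxidoreductase ETFDH, which hands them to ubiquinone, had 591 CPM in muscle, 357 in liver, 97.3 in brain, 214 in ovary, 23.3 in blood and 71.1 in spleen.

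Of the 11 segments of the inner steps of beta-oxidation, 6 were highest in muscle (4.11% of all expressed segments). Of these, 2 (ACAA2 and ECI1) led by 2-fold or more (2.18%). HADHA, the alpha subunit of the trifunctional enzyme on the inner membrane, had 1366 and 1188 CPM in muscle, 726 and 613 in liver, 139 and 143 in brain, 482 and 471 in ovary, 16.1 and 12.2 in blood, and 170 and 156 in spleen. Its partner HADHB had 549 CPM in muscle, 291 in liver, 161 in brain, 239 in ovary, 10.2 in blood and 92.2 in spleen. The mitochondrial thiolase ACAA2 was led by muscle with 425 CPM in muscle, 169 in liver, 21.4 in brain, 182 in ovary, 1.57 in blood and 102 in spleen, while the peroxisomal thiolase ACAA1 was led by liver with 32.5 CPM in muscle, 298 in liver, 51.6 in brain, 56.9 in ovary, 3 in blood and 53.7 in spleen. Both held on each platform. The short-chain dehydrogenase HADH had 236 CPM in muscle, 142 in liver, 12.7 in brain, 61.5 in ovary, 7.31 in blood and 50.9 in spleen, and a second segment of that name, with fewer counts and from another assembled locus, was highest in spleen, at 2.14 CPM in muscle, 3.27 in liver, 3.1 in brain, 2.5 in ovary, 1.41 in blood and 10.2 in spleen. Among hydratases and isomerases, ECHS1 had 133 CPM in muscle, 124 in liver, 24.7 in brain, 37.8 in ovary, 1.1 in blood and 31.5 in spleen. The isomerase ECI1, which shifts double bonds of unsaturated chains, was led by muscle at 155 CPM in muscle, 64.8 in liver, 13.5 in brain, 40.4 in ovary, 10.8 in blood and 18.4 in spleen. The second isomerase ECI2, found in peroxisomes as well in mammals, was highest in liver and had the most even profile of all members, with 238 CPM in muscle, 308 in liver, 61.1 in brain, 148 in ovary, 54.5 in blood and 107 in spleen. The hydratase-like ECHDC3 had 98.7 CPM in muscle, 109 in liver, 9.81 in brain, 39.4 in ovary, 1.71 in blood and 40.7 in spleen, and ECHDC2 had 61.5 CPM in muscle, 43.7 in liver, 13.1 in brain, 33.3 in ovary, 4.71 in blood and 63.1 in spleen, with spleen and muscle 1.03-fold apart.

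In the citrate cycle 9 of 14 segments were highest in muscle (4.11% of all expressed segments), and 8 of these led by at least 2-fold (2.18%). Among the 25 segments of fatty acid oxidation inside mitochondria, 18 were highest in muscle (4.11%) and 6 led by 2-fold (2.18%). The difference between these shares was not tested. Against liver alone, 10 of the 14 and 6 of the 25 were higher in muscle by 2-fold or more (11.0%). That measure depended on the totals: without the mitochondrial genome it gave 10 of the 14 and 19 of the 25 (27.7%). The catalytic subunit of NAD-linked isocitrate dehydrogenase, IDH3A, had 1382 and 1355 CPM in muscle, 6.4 and 7.58 in liver, 276 and 277 in brain, 115 and 126 in ovary, 9.46 and 7.77 in blood, and 106 and 107 in spleen. Liver was the lowest of the 6 tissues for IDH3A on both platforms. The main segment of the beta subunit IDH3B had 447 and 347 CPM in muscle, 14.6 and 11.8 in liver, 103 and 92 in brain, 59.7 and 48.7 in ovary, 14.5 and 9.99 in blood, and 19.2 and 17.8 in spleen, and so was low in the same 2 tissues, liver and blood, and also in spleen. The gamma subunit IDH3G had few counts, with 0.467 CPM in muscle, 0.339 in liver, 7.57 in brain, 5.21 in ovary, 6.67 in blood and 2.33 in spleen, so its order among tissues rests on few counts. A second IDH3B segment, of the same assembly number, had 15.7 CPM in muscle, 5.16 in liver, 9.65 in brain, 2.56 in ovary, 4 in blood and 6.79 in spleen.

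The next enzyme is the 2-oxoglutarate dehydrogenase complex. Its first component OGDH had 2128 and 2100 CPM in muscle, 205 and 219 in liver, 292 and 304 in brain, 235 and 264 in ovary, 448 and 433 in blood, and 275 and 259.9 in spleen. Blood was second to muscle for OGDH, above liver, brain, ovary and spleen on both platforms. The related OGDHL was led by brain, with 0.699 and 0.998 CPM in muscle, 1.38 and 0 in liver, 286 and 277 in brain, 112 and 107 in ovary, 42.9 and 40.2 in blood, and 2.75 and 0.988 in spleen, and was next to absent from muscle, liver and spleen. DLST, the transferase core of the same complex, had 552 CPM in muscle, 164 in liver, 117 in brain, 145 in ovary, 25.8 in blood and 109 in spleen. Succinyl-CoA ligase joins a shared alpha subunit with an ADP-linked or a GDP-linked beta subunit. The ADP-linked subunit SUCLA2 had 1168 and 1112 CPM in muscle, 292 and 286 in liver, 183 and 180 in brain, 151 and 149.8 in ovary, 37.2 and 33.9 in blood, and 135 and 109.7 in spleen, and a second segment of it 495 CPM in muscle, 191 in liver, 148 in brain, 124 in ovary, 15.5 in blood and 63.5 in spleen. The GDP-linked subunit SUCLG2 was highest in liver instead, at 51 CPM in muscle, 104 in liver, 21.9 in brain, 54.3 in ovary, 0.643 in blood and 47.3 in spleen.

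The last enzymes differed again. Fumarate hydratase (FH) was highest in liver, with 519 and 432 CPM in muscle, 1003 and 839.9 in liver, 107 and 86.5 in brain, 130 and 105 in ovary, 17 and 10.6 in blood, and 92.1 and 90.9 in spleen, nearly 2-fold above muscle on both platforms (1.93-fold with the libraries summed). Without the mitochondrial genome in the totals, FH and SUCLG2 were highest in muscle, with log2 ratios of muscle to liver of 0.17 for FH and 0.09 for SUCLG2. Malate dehydrogenase MDH2 had 1543 CPM in muscle, 636 in liver, 209 in brain, 236 in ovary, 82.6 in blood and 154 in spleen. Citrate synthase (CS), which opens the cycle, had 58.5 and 44.4 CPM in muscle, 2.32 and 2.53 in liver, 78.9 and 62.3 in brain, 83.5 and 71.7 in ovary, 18 and 20 in blood, and 9.91 and 5.93 in spleen. The segment of CS was low in liver and spleen and similar in ovary, brain and muscle, so that its CPM did not follow the profile of IDH3A. With TMM factors CS was highest in muscle. It was also highest there without the mitochondrial genome in the totals, at 142 CPM in muscle, 88.8 in brain and 84.5 in ovary.

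**Figure D2:**
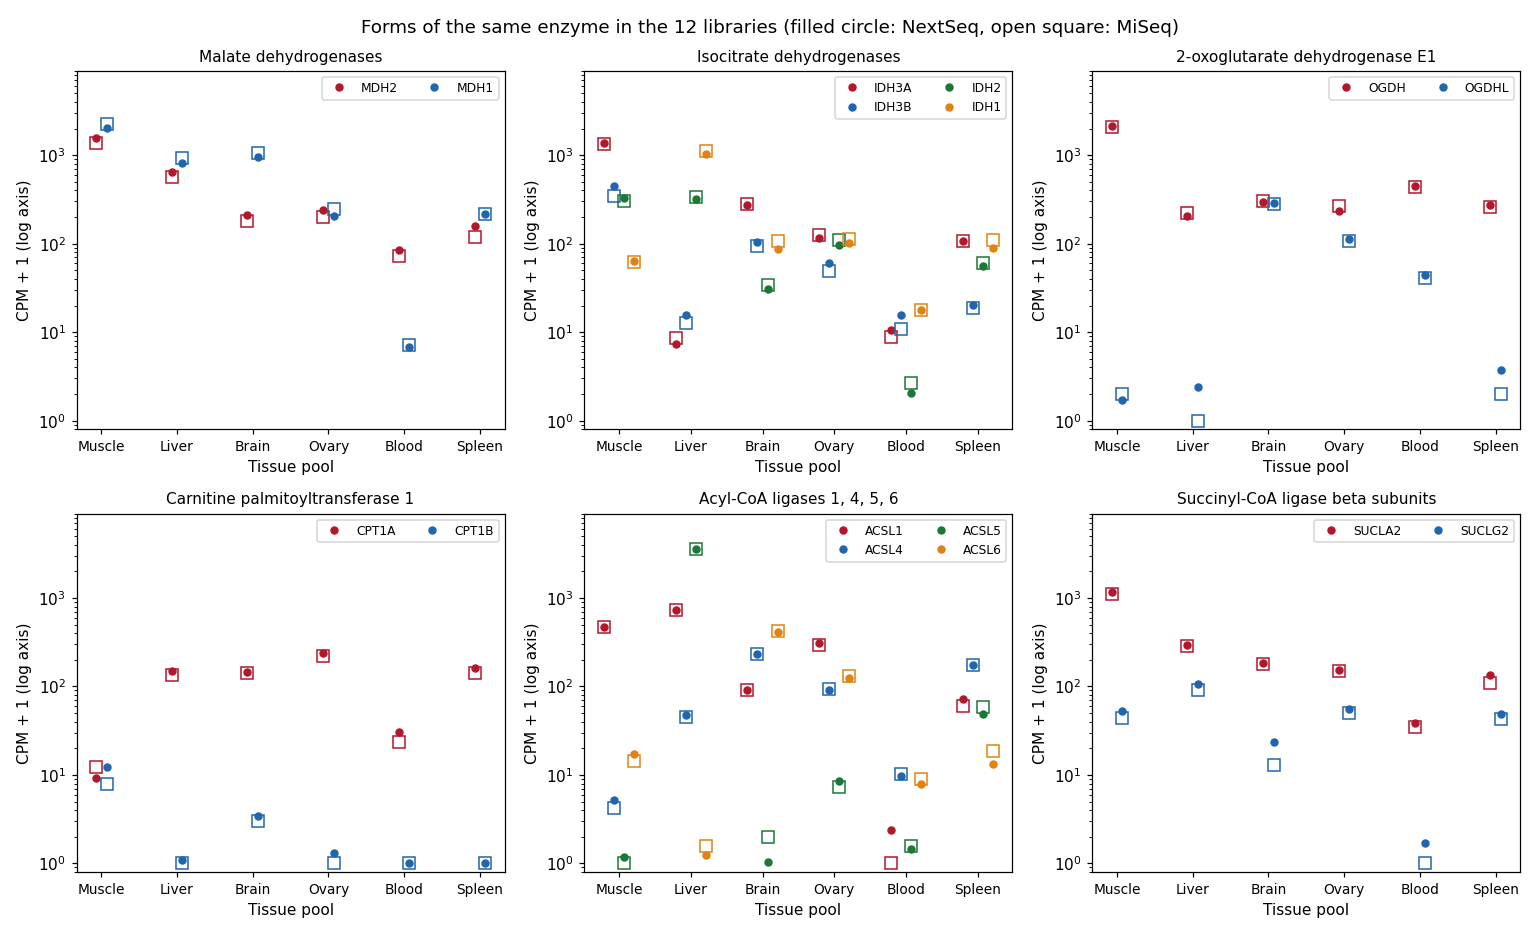
CPM plus 1 on a log axis for forms of the same enzyme in the NextSeq (filled circles) and MiSeq (open squares) library of each tissue pool. The 2 libraries of a pool nearly coincide, IDH1 peaks in liver where IDH3A peaks in muscle, and OGDHL peaks in brain where OGDH peaks in muscle. Heights of different genes are not comparable, because their lengths were not at hand.

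The forms that run beside the cycle differed widely between muscle and liver. Cytosolic aconitase ACO1, which doubles as an iron-responsive RNA-binding protein, had 56 and 52.1 CPM in muscle, 3499 and 3366 in liver, 95.2 and 105 in brain, 119 and 101 in ovary, 2.43 and 1.67 in blood, and 219.8 and 229 in spleen. Its lead in liver was 15.8-fold over spleen. Cytosolic NADP-linked IDH1, a source of NADPH for synthesis, had 62.4 and 61.6 CPM in muscle, 1033 and 1126 in liver, 85.4 and 107 in brain, 102 and 112 in ovary, 16.8 and 16.7 in blood, and 88.4 and 108 in spleen, a lead of 10.1-fold over ovary. The mitochondrial NADP-linked form IDH2 was even between muscle and liver in CPM, with 324 and 305 CPM in muscle, 317 and 338 in liver, 29.8 and 33.1 in brain, 96.9 and 109 in ovary, 1.03 and 1.67 in blood, and 55.5 and 59.3 in spleen. Without the mitochondrial genome in the totals, the log2 ratio of muscle to liver of IDH2 was 1.14. Cytosolic malate dehydrogenase MDH1, part of the malate-aspartate shuttle that brings glycolytic electrons to mitochondria, was led by muscle instead, at 2043 and 2257 CPM in muscle, 823 and 921 in liver, 957 and 1047 in brain, 207 and 247 in ovary, 5.72 and 6.11 in blood, and 217 and 218 in spleen. Brain was second for MDH1. The putative MDH1B had few counts, with 0.129 CPM in muscle, 0.664 in liver, 4.83 in brain, 5.14 in ovary, 0.0471 in blood and 2.43 in spleen.

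The name rule also drew in 3 segments that belong to other pathways. The name ATP-citrate synthase stands for ACLY, which cleaves citrate in the cytosol to supply acetyl-CoA for making fatty acids and sterols. Its main segment had 7.84 and 8.73 CPM in muscle, 4424 and 4381 in liver, 291 and 263 in brain, 347 and 338 in ovary, 5.85 and 5.27 in blood, and 149 and 162 in spleen. The other segment of ACLY had 2.55 CPM in muscle, 1244 in liver, 106 in brain, 131 in ovary, 1.11 in blood and 38.1 in spleen. The third, DHKTD1, acts on 2-oxoadipate in lysine breakdown and had 196 CPM in muscle, 1073 in liver, 20.5 in brain, 203 in ovary, 2.15 in blood and 66.7 in spleen. All 3 were led by liver on both platforms, by 5.27-fold for DHKTD1 to 12.7-fold for the main segment of ACLY, and they made up 24.3% of the members' counts in liver, against 0.793% in muscle.

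The first comparison set muscle against liver, the pair of tissues known for high rates of fatty acid oxidation. Citrate cycle segments were higher in muscle, the mitochondrial enzymes of fatty acid oxidation mostly lay within 2-fold, and most ligases and cytosolic forms were higher in liver. By a ratio of 2-fold or more, with 1 CPM added to both, 18 of 59 members were higher in muscle (11.0% of all expressed segments) and 14 were lower (24.3%), while 27 lay between. The median log2 ratio of muscle to liver was 0.25 for members, beside -0.18 for all expressed segments. In the citrate cycle 10 of 14 segments were higher in muscle by 2-fold or more, and the median was 1.59. The ratios reached 7.53 for IDH3A, 4.84 for IDH3B, 4.14 for CS and 3.36 for OGDH, and SUCLG2 at -1.01 was the only segment of the cycle past 2-fold the other way. For the 25 segments of fatty acid oxidation inside mitochondria, the median was 0.73, with 6 higher in muscle, 1 lower (CPT1A, -3.98) and 18 within 2-fold. For the 7 ligases the median was -2.87, with 5 lower in muscle by 2-fold or more and 1 higher, ACSL6 (3.76).

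**Figure D3:**
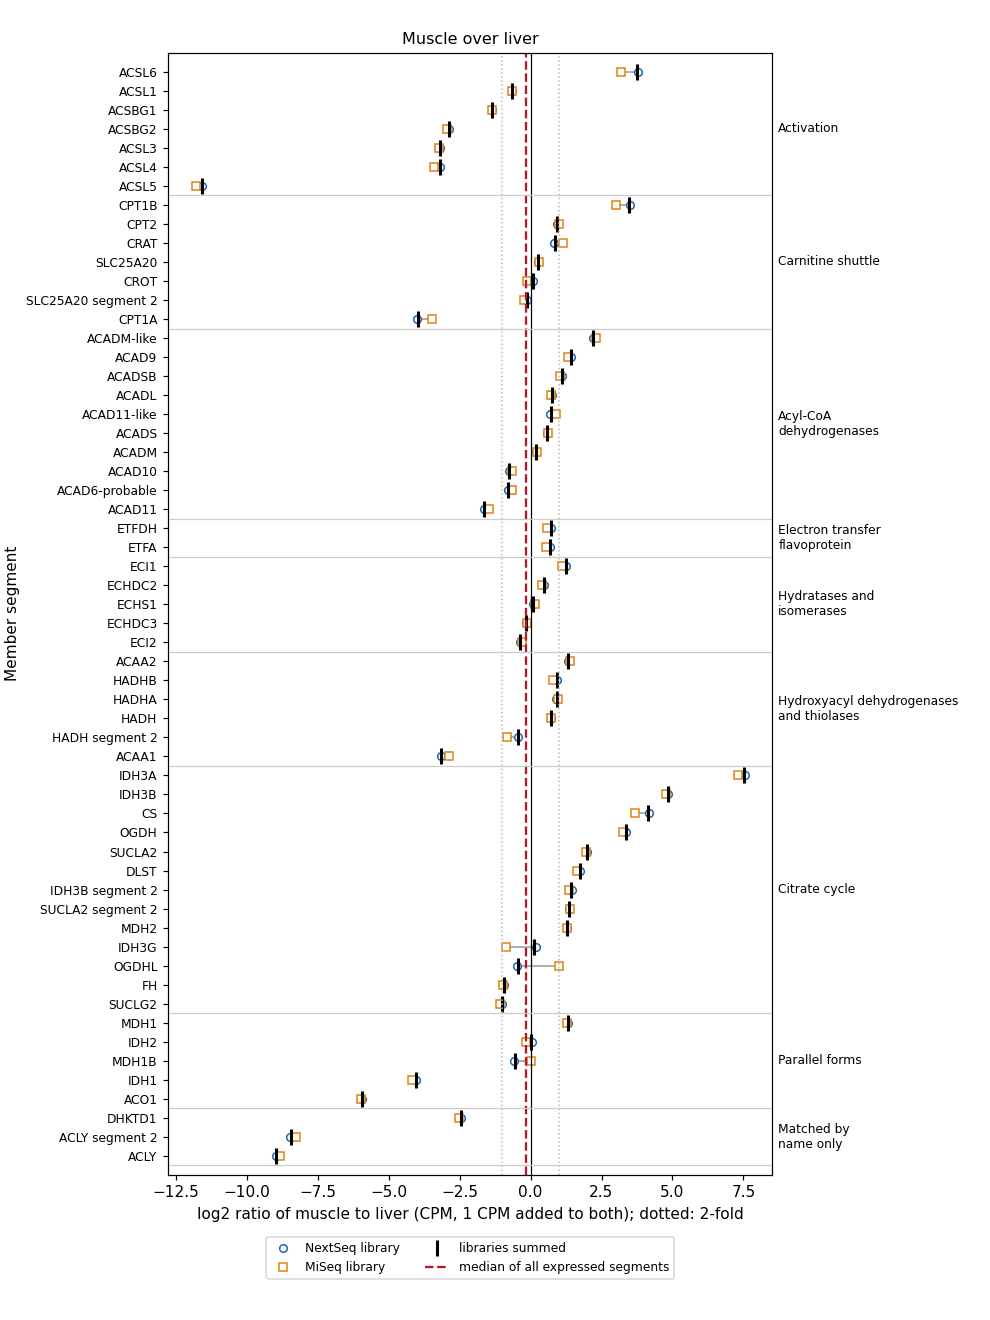
Log2 ratio of muscle to liver CPM, with 1 CPM added to both, for 58 members by role, in the NextSeq (circles) and MiSeq (squares) libraries and in both summed (bars). The dashed line is the median of all expressed segments (-0.18); the citrate cycle reaches from -1.01 to 7.53, and ACLY and ACSL5 lie farthest to the left.

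How far muscle stood above liver depended on the totals. With transcripts of the mitochondrial genome left out, all log2 ratios of well expressed segments moved by about 1.12, and 34 members were then higher in muscle by 2-fold or more (27.7% of all expressed segments), 11 were lower (14.3%) and the median was 1.36, beside 0.25 for all expressed segments. On that scale the 25 mitochondrial segments of fatty acid oxidation had a median of 1.84, and 19 were higher in muscle by 2-fold or more. The citrate cycle then had a median of 2.7, and 10 of its 14 segments were higher in muscle by 2-fold or more. For comparison, and chosen after the values were seen, the 557 other expressed segments with mitochondrial in their name were highest in muscle in 24.1% of cases, with a median log2 ratio of muscle to liver of 0.37. No test of members against these was made.

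Against brain, muscle was higher by 2-fold or more for 34 of the 41 members with a mitochondrial site and lower for 3. In this comparison 38 of 59 members were higher in muscle by 2-fold or more (5.24% of all expressed segments) and 10 were lower (69.2%), with a median log2 ratio of muscle to brain of 2.10, beside -1.86 for all. With TMM factors these medians were 4.42 and -0.15. Of the 25 mitochondrial segments of fatty acid oxidation 22 were higher in muscle, with a median of 2.59. The ratios were 6.50 for ACADM-like, 4.25 for ACAA2, 4.11 for HADH and 3.70 for ACADM. In the citrate cycle 10 of 14 were higher, with a median of 2.14. Lower in muscle were OGDHL (-7.39) and IDH3G (-2.55) of the cycle, CPT1A (-3.94), the ligases ACSBG1, ACSL4, ACSL3 and ACSL6 (-6.56 to -4.61), MDH1B (-2.37) and both segments of ACLY (-5.03 and -4.92).

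In CPM, the ratio of liver to brain differed between fatty acid oxidation and the citrate cycle. By 2-fold or more, 34 of 59 members were higher in liver than in brain (9.02% of all expressed segments) and 11 were lower (60.0%), with a median log2 ratio of liver to brain of 1.86, beside -1.41 for all. Of the 25 mitochondrial segments of fatty acid oxidation 18 were higher in liver and 1 was lower, CPT1B, with a median of 2.28. Of the 14 citrate cycle segments 3 were higher in liver and 5 were lower, with a median of -0.51. That median was also above the -1.41 of all expressed segments. The 5 that were lower were OGDHL (-6.95), IDH3A (-5.21), CS (-4.57), IDH3B (-2.74) and IDH3G (-2.68). The difference between these medians was not tested, and both tissues had nearly the same share of mitochondrial genome transcripts. Their TMM factors differed, at 0.567 for liver and 1.88 for brain, and so did their DESeq2 factors, at 0.556 and 1.84. Either set raises liver against brain by more than 2-fold for well expressed segments. That is more than the distance of the citrate cycle median from no difference, so its negative sign holds for CPM only. The counts for this pair were not computed with these factors and also hold for CPM only.

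The lowest level was in blood for 44 of 59 members (37.5% of all expressed segments), in liver for 5 (18.0%), in muscle for 4 (40.8%), in brain for 3 (1.95%), in ovary for 2 (0.797%) and in spleen for 1 (0.92%). Blood was compared with spleen, which holds blood cells in a tissue. By 2-fold or more, 3 members were higher in blood (7.21%) and 44 were lower (59.4%), and the median log2 ratio of blood to spleen was -2.70, beside -1.56 for all. The 3 that were higher were OGDHL (3.59), ACAD10 (1.62) and IDH3G (1.20). Next came CS at 0.84 and OGDH at 0.70. The widest gaps were those of ACO1 (-6.03), ACAA2 (-5.32), ACSL5 (-5.09), ACSBG2 (-5.04) and MDH1 (-5.02). All 6 thiolase and hydroxyacyl dehydrogenase segments were lower in blood, as were 9 of 10 acyl-CoA dehydrogenases, whereas the carnitine shuttle had a median of -0.05 and 4 of its 7 segments lay within 2-fold. One of these 4, CPT1B, had no count in either tissue.

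The citrate cycle took 62% of the members' counts in blood, more than in any other tissue, against 30.6% in spleen, and OGDH alone accounted for 448 of 737 CPM of the cycle in blood. These shares do not correct for length. Hemoglobins and carbonic anhydrase, the 3 matched erythrocyte markers, summed to 454200 CPM in blood and 1182 CPM in spleen, and such a load lowers the CPM of every other gene in blood. With DESeq2 factors, which adjust for it, 15 members were higher in blood (27.2% of all expressed segments) and 26 were lower (33.9%), with a median of -0.81. With TMM factors 10 were higher (22.8%) and 31 were lower (37.8%), with a median of -1.11.

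**Figure D4:**
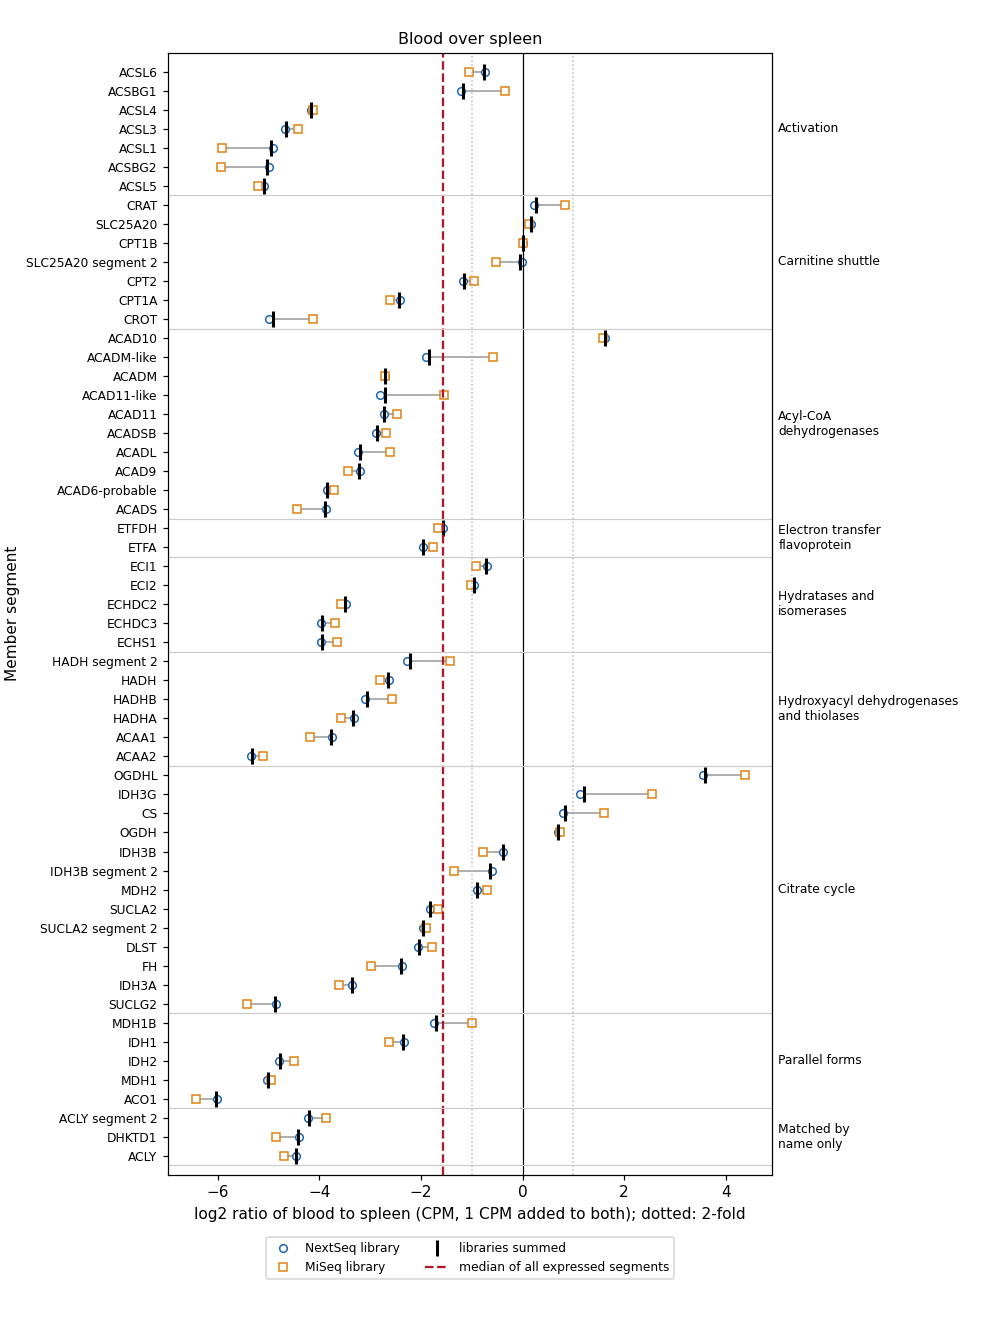
Log2 ratio of blood to spleen CPM, with 1 CPM added to both, for 58 members by role, in the NextSeq (circles) and MiSeq (squares) libraries and in both summed (bars). The dashed line is the median of all expressed segments (-1.56); OGDHL, ACAD10 and IDH3G pass 2-fold on the right and most members lie to the left of the line.

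Most members could be detected in every tissue. At 1 CPM or more, 55 of 59 were present in muscle (61.2% of all 14908 segments), 55 in liver (66.7%), 58 in brain (87.7%), 58 in ovary (88.3%), 50 in blood (57.7%) and 58 in spleen (83.4%). In all 6 tissues 47 were present (46.5% of all segments). Those below 1 CPM in muscle were ACSL5, IDH3G, OGDHL and MDH1B, and those below it in liver were ACSL6, CPT1B, IDH3G and MDH1B. The tissue specificity index τ is 0 for a gene at the same level everywhere and nears 1 for an abundant gene of a single tissue. Because levels under 2 CPM are set to 2 CPM, genes of low level, such as CPT1B, cannot come as near to 1. It had a median of 0.361 over members and 0.461 over all expressed segments. It ranged from 0.188 for ECI2 to 0.805 for ACSL5, the only member above 0.8, followed by ACSBG1 at 0.792 and CPT1B at 0.696. Below 0.3 lay 15 of 59 members, all with a mitochondrial site, beside 3453 of all 14561 expressed segments. Of the 557 other expressed segments with mitochondrial in their name, 238 lay below 0.3.

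Ratios of counts within 1 tissue do not depend on its total, and when they are set side by side between tissues the unknown lengths cancel. The ratio of HADHA to HADHB was 2.47 in muscle, 2.48 in liver, 0.862 in brain, 2.02 in ovary, 1.56 in blood and 1.84 in spleen. Brain was the lowest tissue on NextSeq and in the sum (platform ratios 0.862 and 0.873), and in blood the MiSeq ratio was lower at 0.772. The ratio of ETFA to ETFDH was 0.959 in muscle, 0.986 in liver, 0.504 in brain, 0.604 in ovary, 0.9 in blood and 1.18 in spleen, and that of ACADL to ACADM 0.87 in muscle, 0.599 in liver, 0.924 in brain, 0.963 in ovary, 0.5 in blood and 0.724 in spleen. The whole range of each of these was at most 2.87-fold. The ratio of CPT2 to SLC25A20 in the shuttle ranged over 6.09-fold, at 3.87 in muscle, 2.43 in liver, 2.89 in brain, 1.04 in ovary, 0.636 in blood and 1.64 in spleen.

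In the citrate cycle, the ratio of IDH3A to IDH3B was 3.13 in muscle, 0.447 in liver, 2.7 in brain, 1.96 in ovary, 0.656 in blood and 5.56 in spleen, a range of 12.4-fold. Liver and blood had the lowest ratios on both platforms. The ratio of OGDH to DLST was 3.85 in muscle, 1.26 in liver, 2.5 in brain, 1.63 in ovary, 17.3 in blood and 2.51 in spleen, with blood far above the rest on NextSeq (17.3) and MiSeq (17.3) alike. The ratio of the ADP-linked SUCLA2 to the GDP-linked SUCLG2 was 22.9 in muscle, 2.82 in liver, 8.35 in brain, 2.78 in ovary, 57.5 in blood and 2.82 in spleen, so that muscle was 8.12 times liver. The blood value rests on a SUCLG2 level of 0.643 CPM, with no count on MiSeq. Against the shared alpha subunit SUCLG1, which the name rule did not take in (562 CPM in muscle, 190.3 in liver, 114 in brain, 118 in ovary, 11.9 in blood and 104 in spleen), the SUCLA2 ratio ranged only from 1.28 in ovary to 3.11 in blood.

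Mitochondrial against cytosolic forms also spread widely. The ratio of OGDH to OGDHL, both mitochondrial, spread further, at 2985 in muscle and 1.02 in brain. Its muscle value rests on an OGDHL level of 0.713 CPM. The ratio of IDH2 to IDH1 was 5.18 in muscle, 0.307 in liver, 0.347 in brain, 0.956 in ovary, 0.0636 in blood and 0.622 in spleen, with muscle 16.9 times liver. The ratio of MDH2 to MDH1 behaved otherwise. It was 0.752 in muscle, 0.768 in liver, 0.217 in brain, 1.13 in ovary, 14.4 in blood and 0.71 in spleen, hence nearly equal in muscle and liver, lowest in brain and highest in blood, where MDH1 had 5.74 CPM. The order of muscle and liver held on both platforms for IDH2 to IDH1, while the small difference for MDH2 to MDH1 is within the platform spread.

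**Figure D5:**
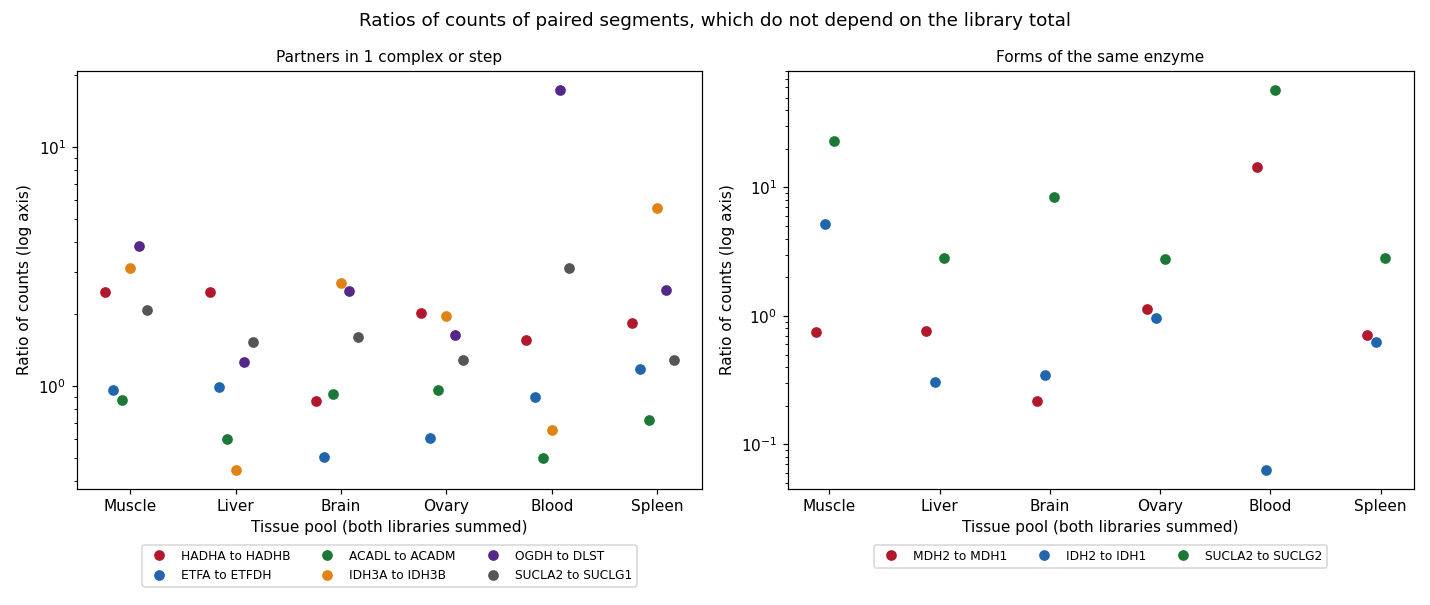
Ratio of counts of 2 segments in each tissue pool (libraries summed, log axis), for partners of 1 complex or step (left) and for forms of the same enzyme (right). HADHA to HADHB and ETFA to ETFDH stay close between muscle and liver, whereas IDH2 to IDH1 is 5.18 in muscle and 0.307 in liver.

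Genes of the same pathways outside the name rule were counted from a list of 76, of which 61 were matched by name and 60 reached 1 CPM in a tissue. Of these, 26 were highest in liver (6.23% of all expressed segments), 16 in muscle (4.11%), 6 in brain (24.9%), 6 in ovary (32.1%), 3 in blood (8.89%) and 3 in spleen (23.7%). These counts depended on the totals, and more of these genes were highest in muscle with TMM or DESeq2 factors or without the mitochondrial genome. By 2-fold or more, 17 were higher in muscle than in liver (11.0% of all expressed segments) and 22 were lower (24.3%), with a median log2 ratio of -0.23, beside -0.18 for all. The entry of pyruvate into the cycle was led by muscle. PDHA1, the catalytic subunit of pyruvate dehydrogenase, had 1110 CPM in muscle, 98 in liver, 149 in brain, 106 in ovary, 34.3 in blood and 95.2 in spleen, and PDHB, DLAT, PDHX and DLD, the other parts of that complex, were led by muscle as well (319, 433, 248 and 1120 CPM in muscle, against 87.4, 39.1, 27.6 and 392 CPM in liver). The pyruvate carrier subunit MPC2 had 66.9 CPM in muscle and 31.7 CPM in liver. The step of the cycle that the rule left out, succinate dehydrogenase, was led by muscle for its flavoprotein SDHA, at 1710 CPM in muscle, 347 in liver, 375 in brain, 329.5 in ovary, 149.7 in blood and 153 in spleen. The segments matched to its other subunits SDHB, SDHC and SDHD did not pass 14.8 CPM anywhere. The SDHB segment is named as partial, and without lengths these levels cannot be set against that of SDHA.

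OXCT1, which lets a tissue use ketone bodies, had 760.4 CPM in muscle, 2.23 in liver, 267 in brain, 36.3 in ovary, 1.24 in blood and 62.3 in spleen. Of 6 genes of peroxisomal oxidation, 5 were highest in liver (6.23% of all expressed segments) and 4 of these led by 2-fold (3.85%). The log2 ratios of muscle to liver were -3.15 for ACOX2, -3.35 for EHHADH, -2.35 for HSD17B4 and -0.98 for ACOX3, while DECR2 was highest in brain, at 0.537 CPM in muscle, 0.82 in liver, 4.14 in brain, 0.821 in ovary, 0.502 in blood and 2.18 in spleen. Genes that turn citrate and acetyl-CoA toward synthesis were led by liver like ACLY, with 60.1 CPM in muscle and 1819 CPM in liver for the cytosolic acetyl-CoA carboxylase ACACA. The values were 53.8 and 1414 CPM for malic enzyme ME1, and 0.479 and 196 CPM for the citrate carrier SLC25A1. The other carboxylase ACACB, whose product restrains CPT1 in mammals, had 291 CPM in muscle, 0 in liver, 0.432 in brain, 179 in ovary, 0.0627 in blood and 3.52 in spleen. No count of ACACB in liver allows up to 0.0848 CPM there.

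Acetyl-CoA from acetate is made by ACSS2 in the cytosol, which had 75.8 CPM in muscle and 311 CPM in liver. Its relative ACSS3 had 61.7 and 294 CPM, the sterol pathway enzyme HMGCS1 28.5 and 564 CPM, and PCK1, which draws oxaloacetate off for glucose synthesis, 0.304 and 4131 CPM in muscle and liver. PDP2, a phosphatase that switches pyruvate dehydrogenase on, was led by ovary at 169 CPM, against 8.11 to 43.9 CPM elsewhere.

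Some genes of fatty acid supply and control differed in CPM between muscle and liver as well. Those named here were picked for a 2-fold lead of a tissue on both platforms. FABP3, the fatty acid carrier of muscle, had 161 CPM in muscle and 0.0566 CPM in liver, and FABP1, the carrier of liver, 0.479 and 3837 CPM. PPARA, a receptor that drives oxidation genes in mammals, had 18.8 CPM in muscle, 46.1 in liver, 11.7 in brain, 14.4 in ovary, 0.0784 in blood and 8.79 in spleen. Without the mitochondrial genome in the totals, the log2 ratio of muscle to liver of PPARA was -0.18. BBOX1, the last enzyme of carnitine synthesis, had 0.105 CPM in muscle and 194 CPM in liver, while TMLHE, the first enzyme of carnitine synthesis, was led by ovary at 122 CPM. PDK1, a kinase that switches pyruvate dehydrogenase off, was led by blood with 79.2 and 78.6 CPM in muscle, 47 and 44.4 in liver, 125 and 117 in brain, 69.6 and 84.7 in ovary, 465 and 430.4 in blood, and 70.4 and 71.2 in spleen. ACOT13, a thioesterase that undoes acyl-CoA, was led by blood too, with 2.31 CPM in muscle, 1.4 in liver, 2.54 in brain, 1.18 in ovary, 63.5 in blood and 4 in spleen.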

How the data were processed

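RNA from 6 pooled tissues of 2 adult female tree swallows was sequenced as stranded mRNA libraries on 2 platforms, and the 12 libraries were grouped by the tissue in their labels. The deposited table held expected counts per segment of the transcriptome that the authors assembled. These counts carry values of 0.5, and 8 columns were written with commas inside the numbers. The submitters' processing notes name Trimmomatic 0.36 and STAR 2.5.2a, while the methods of the study name BWA-MEM for mapping to the transcriptome. Segments carry the name of their best match in a reference species, for the 59 members 1 of 8 bird species. Close paralogs and variants of a locus may therefore share or split reads. No genome, segment lengths or sequences were used here.

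Members were all segments whose name held 1 of 16 terms. The terms, gene lists and alternatives were chosen with earlier results of these data known. Counts of both platforms were summed per tissue and divided by the total (CPM). A segment was present at 1 CPM, and expressed if present in at least 1 tissue. Log2 ratios had 1 CPM added, and a call was a ratio of 2-fold. The index τ used log2 values with levels under 2 CPM set to 2 CPM. Intervals are exact Poisson intervals at 95%, and the floor is 3 counts. With 1 pool per tissue no test was run, and libraries of a pool are technical repeats. The plan named all members by role, with all tissues given for the member with most counts, those led by 2-fold, those highest in an uncommon tissue and preset sets of related forms. Genes of the other pathway list were named where led by 2-fold on both platforms. ACACB, ACOX3, DECR2, SDHB, SDHC and SDHD were named beside them without such a lead. The code was tested on simulated data. Alternatives used NextSeq or MiSeq counts only, the average of their CPM, factors from edgeR 4.0.16 (TMM) and DESeq2 1.42.0 on rounded counts, totals without the mitochondrial genome (19 segments) or without the 50 most abundant segments, thinning to the smallest total, summing segments of a name, and other pseudocounts, minima and folds. No column was left unmapped. Results of some genes are not reported here, though they enter the counts and medians. Python 3.11.15, numpy 2.4.6, pandas 2.3.3, scipy 1.17.1, matplotlib 3.10.9 and R 4.3.3 were used.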

Additional observations from a re-analysis of the deposited data

How the results depend on the processing

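The libraries of a pool are repeats of 1 RNA, so no value here measures variation between birds, and counts decide the order only where they are many. The highest tissue was the same under all 8 changes of platform, scaling, depth and averaging for 42 of 59 members, among them 29 of 30 highest in muscle, 8 of 15 in liver and none of those in ovary or spleen. Main changes came from the totals. With TMM, DESeq2, no mitochondrial genome or no 50 most abundant segments, the members led by 2-fold in muscle numbered 28, 28, 31 and 30 (15 in the main count; 5 at 4-fold), and those higher in muscle than in liver 29, 29, 34 and 31 (18; 8 at 4-fold), while the other pathway genes highest in muscle numbered 28, 28, 29 and 28 (16). Members highest in liver fell to 8 (15) without the mitochondrial genome. In the same order of settings, the median log2 ratio of muscle to liver was 0.89, 0.86, 1.36 and 1.15 (0.25; 0.48 at a minimum of 10 CPM), that of muscle to brain 4.42, 4.39, 3.21 and 3.60 (2.10; 1.88 with 5 CPM added), and that of blood to spleen -1.11, -0.81, -2.78 and -2.06 (-2.70; -2.18 with 5 CPM added). Median τ was 0.446, 0.455, 0.39 and 0.388 (0.361; 0.357 with segments of a name summed and 0.37 with a floor of 1 CPM). Members higher in blood than in spleen numbered 10 with TMM, 15 with DESeq2, 7 without the 50 most abundant segments and 1 at 4-fold (3), and those lower numbered 26 with DESeq2 (44). At 10 CPM, 26 members were present in blood (50 at 1 CPM) and 21 in all 6 tissues (47). These scalings also moved the median of all segments, by 1.71 (muscle over brain) and 1.22 (blood over spleen) with TMM and by 0.42 (muscle over liver) without the mitochondrial genome. Without that genome, 4.6% of all expressed segments led by 2-fold in muscle (2.18%), 27.7% were higher in muscle than in liver (11.0%) and 5.92% were highest in liver (6.23%). For the other totals the shares of all segments behind the muscle counts were not computed, so a shift of all genes is not set apart there. With 1 platform alone, the median log2 ratios ranged over 0.25 to 0.41 (muscle over liver), 1.80 to 2.11 (muscle over brain) and -2.70 to -2.60 (blood over spleen), and median τ over 0.36 to 0.365. SUCLG2 changed sign between muscle and liver, at 0.094 without the mitochondrial genome (-1.01). For changes other than those of the totals, the cause was not tested. No paired analysis was possible because each tissue has 1 pool and its libraries differ by platform.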
